A study of Mus musculus with 24 samples.

Results

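Transcripts known from developing and circulating red blood cells were followed through the nucleus accumbens (NAc) libraries of stressed and unstressed mice: the messenger RNAs *Hba-a1*, *Hba-a2*, *Hbb-b1*, *Hbb-b2*, *Alas2*, *Fech* and *Bpgm*, and the microRNAs (miRs) mir-144, mir-451a and mir-486. They are 10 of the 39473 features counted, 7 of 38293 genes in the mRNA libraries and 3 of 1180 precursors in the small RNA libraries, and they were chosen by their measured levels in these same libraries, after the differences between groups were known. Their levels and the differences between groups are therefore a description without a test. Of the 10, 8 passed the filter on low counts, and mir-451a and mir-486 did not.

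C57BL/6J mice of both sexes, 9 weeks old by the labels and 8 weeks old by the methods, either stayed in the home cage (NSM, nonstressed males; NSF, nonstressed females) or went through subchronic variable stress (SCVS; SM, stressed males; SF, stressed females), in which 3 alternating stressors (foot shock, tail suspension and restraint) filled 6 days. Bilateral NAc punches were taken 24 h after the last stressor from decapitated mice, and the 10 punches of 5 mice were pooled for each library, with females in estrus or proestrus. The RNA of a pool was split by size, so that each of the 12 pools (3 per group) gave an mRNA library and a small RNA library. The mRNA libraries held 41076780 to 60867747 counted reads and the small RNA libraries 5086554 to 13522287. The 8 markers of NAc projection neurons summed to between 3965 and 5142 CPM in every mRNA library, where CPM is a read count relative to library size, scaled by TMM (a factor that evens out library composition).

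In red blood cells, 2 alpha and 2 beta globin chains carry heme and oxygen. The alpha chains are encoded by *Hba-a1* and *Hba-a2* and the beta chains of the adult by *Hbb-b1* and *Hbb-b2*. *Alas2* encodes the erythroid form of the enzyme that starts heme synthesis, *Fech* the enzyme that ends it by inserting iron, and *Bpgm* the enzyme that makes 2,3-bisphosphoglycerate, which lowers the oxygen affinity of hemoglobin. The miRs mir-144 and mir-451a come from a shared primary transcript that is abundant in erythroid cells, and mir-486 is another abundant erythroid miR. *Fech*, which every heme-making cell needs, and *Bpgm* are also expressed outside the erythroid lineage.

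In the NCBIM37 annotation the alpha globin genes lie together, *Hba-a1* (ENSMUSG00000069919) at chr11:32183511-32184465 and *Hba-a2* (ENSMUSG00000069917) at chr11:32196489-32197301, both on the plus strand. The beta globin genes lie together on the minus strand, *Hbb-b1* (ENSMUSG00000052305) at chr7:110975048-110976610 and *Hbb-b2* (ENSMUSG00000073940) at chr7:110961038-110962510. *Alas2* (ENSMUSG00000025270) is at chrX:146981918-147005181 and *Bpgm* (ENSMUSG00000038871) at chr6:34426207-34455613, both on the plus strand. Reads were counted over the exons of each gene.

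The mir-144 and mir-451a hairpins are shown first because their counts differed so strongly. In the NCBIM37 build the mir-144 hairpin lay at chr11:77886507-77886572 and the mir-451a hairpin at chr11:77886672-77886743, both on the plus strand and 99 bases apart. The mature sequences, taken from RefSeq (GRCm38.p6), are written with the seed (bases 2 to 8) in capitals. Among 1679 mature mouse miRs in that set, no other shared any of the 3 seeds.
miR-144-5p: gGAUAUCAucauauacuguaagu
miR-144-3p: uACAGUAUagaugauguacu
miR-451a: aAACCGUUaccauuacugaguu

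The 100 bases before the RefSeq start of 3 globin genes and *Alas2* are shown because these 5 mRNAs, *Hba-a2* included, had the largest male differences among the members. Capitals mark 5 motifs on either strand: the CCAAT box, the CACCC box and, as a TATA box, the letters ATATAA, which are known from globin promoters, and the GATA motifs written AGATAA or else TGATAA, known from erythroid promoters. In *Hbb-b2* CCAAT matches on opposite strands adjoin and form 1 run of capitals, as the CACCC matches of *Alas2* do. The coordinates come from exact matches to NCBIM37. The *Hba-a1* window matched chromosome 11 at 2 places, and the match nearest the annotated *Hba-a1* start is given. RefSeq names the C57BL/6J beta globin genes *Hbb-bs* and *Hbb-bt*, and their windows matched the *Hbb-b1* and *Hbb-b2* loci of the annotation used for the counts. That annotation places the gene starts upstream of the RefSeq starts, within or before these windows.
Hba-a1, chr11:32183572-32183671, plus strand: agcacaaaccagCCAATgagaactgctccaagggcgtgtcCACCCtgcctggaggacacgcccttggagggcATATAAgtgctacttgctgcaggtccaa
Hbb-b1, chr7:110976443-110976542, minus strand: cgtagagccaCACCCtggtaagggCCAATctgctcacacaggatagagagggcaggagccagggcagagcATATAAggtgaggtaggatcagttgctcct
Hbb-b2, chr7:110962438-110962537, minus strand: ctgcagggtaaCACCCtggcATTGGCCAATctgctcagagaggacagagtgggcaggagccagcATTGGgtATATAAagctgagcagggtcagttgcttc
Alas2, chrX:146981860-146981959, plus strand: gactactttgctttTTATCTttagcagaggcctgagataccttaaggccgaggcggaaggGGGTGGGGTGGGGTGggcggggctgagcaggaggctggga

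All 4 globin windows held the CCAAT box, the CACCC box and the letters ATATAA. The *Hba-a2* window, which shares a run of 97 bases with that of *Hba-a1*, is not shown. Of 32851 mouse promoter windows of the same length, 18.9% held the CCAAT box, 27.2% the CACCC box and 3.74% the letters ATATAA, and 0.201% held all 3. The *Alas2* window held AGATAA, found in 3.59% of windows, and 3 copies of CACCC, both on the opposite strand, but neither the CCAAT box nor the letters ATATAA. The GATA motif TGATAA was found in 2.78% of all windows and in none of the 4 shown. A match is a description of the sequence and not a binding site.

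The alpha and beta globin mRNAs were higher in stressed than in unstressed males and close to each other in the female groups. *Hbb-b1*, the most abundant of the 4, measured 13.9, 15.8 and 12.4 CPM in NSM, 25.7, 22.0 and 22.8 CPM in SM, 22.6, 18.2 and 17.5 CPM in NSF, and 18.7, 17.1 and 18.7 CPM in SF. The male groups did not overlap, and the highest female library, NSF1, reached the level of the stressed males. In males the log2 fold change was 0.74 (SE 0.10), a 1.68-fold higher level, and in females it was -0.08 (SE 0.10). The counts behind these values were 629 to 1102 reads per library.

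*Hbb-b2*, the second adult beta globin gene, stood at 2.93, 3.31 and 2.45 CPM in NSM and at 5.79, 4.15 and 4.79 CPM in SM. Its levels in females were 4.60, 3.15 and 2.91 CPM in NSF and 3.35, 2.76 and 3.50 CPM in SF. Again the male groups did not overlap, NSF1 was the highest unstressed library, and the log2 fold change was 0.75 (SE 0.18) in males and -0.12 (SE 0.18) in females.

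*Hba-a1* was found at 4.34, 3.84 and 3.39 CPM in NSM, 7.30, 6.04 and 5.91 CPM in SM, 5.55, 4.37 and 4.27 CPM in NSF, and 4.91, 4.48 and 4.52 CPM in SF. Every SM library was above every library of the other groups. *Hba-a2* had 2.98, 2.99 and 2.41 CPM in NSM, 5.89, 3.98 and 4.39 CPM in SM, 4.78, 3.02 and 3.44 CPM in NSF, and 3.41, 3.21 and 3.52 CPM in SF. Here NSF1 exceeded SM2 and SM3, but the male groups did not overlap. The male log2 fold changes of the alpha genes were 0.72 (SE 0.12) for *Hba-a1* and 0.74 (SE 0.18) for *Hba-a2*, and the female ones -0.01 (SE 0.13) and -0.10 (SE 0.18).

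The copies of each globin are nearly identical, and the mRNA reads were 50 bases long at each end. Of all 50-base windows in the annotated *Hba-a1* transcript, 68.4% also occurred in *Hba-a2*, and 87.4% of those of *Hba-a2* occurred in *Hba-a1*. For the beta genes the shares were 47.9% of *Hbb-b1* and 58.3% of *Hbb-b2*. How reads with more than 1 match were counted is not given in the sources used here, so the split between copies is uncertain. Globin levels set beside other genes, and the ratio of alpha to beta reads, are uncertain for the same reason. No window of *Alas2*, *Fech* or *Bpgm* occurred in a transcript of another protein-coding gene.

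Heme synthesis starts with *Alas2*, and this mRNA showed the largest male difference of the 10 members. It measured 1.16, 1.46 and 1.10 CPM in NSM and 2.52, 2.30 and 2.04 CPM in SM, with no overlap, for a log2 fold change of 0.88 (SE 0.16), or 1.84-fold. In females the levels were 1.42, 1.73 and 1.68 CPM in NSF and 1.48, 1.23 and 1.05 CPM in SF, a log2 fold change of -0.37 (SE 0.17). Each SF library was below the NSF mean, but SF1 lay above NSF1, so the female groups overlapped. Only 48 to 108 reads per library stood behind *Alas2*, fewer than for any other measured member.

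*Fech* and *Bpgm* were far more abundant in CPM and differed little between groups. *Fech* measured 55.7, 51.1 and 49.96 CPM in NSM, 58.7, 58.9 and 56.3 CPM in SM, 53.4, 51.0 and 52.1 CPM in NSF, and 53.2, 49.8 and 55.4 CPM in SF. The male groups were separate by 0.15 (SE 0.05) on the log2 scale, and the female difference was 0.02 (SE 0.05). *Bpgm* measured 60.8, 58.4 and 51.4 CPM in NSM, 61.7, 59.9 and 57.5 CPM in SM, 55.8, 54.5 and 50.3 CPM in NSF, and 54.9, 55.3 and 57.2 CPM in SF. Its groups overlapped in both sexes, with log2 fold changes of 0.07 (SE 0.06) in males and 0.06 (SE 0.06) in females.

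**Figure D1:**
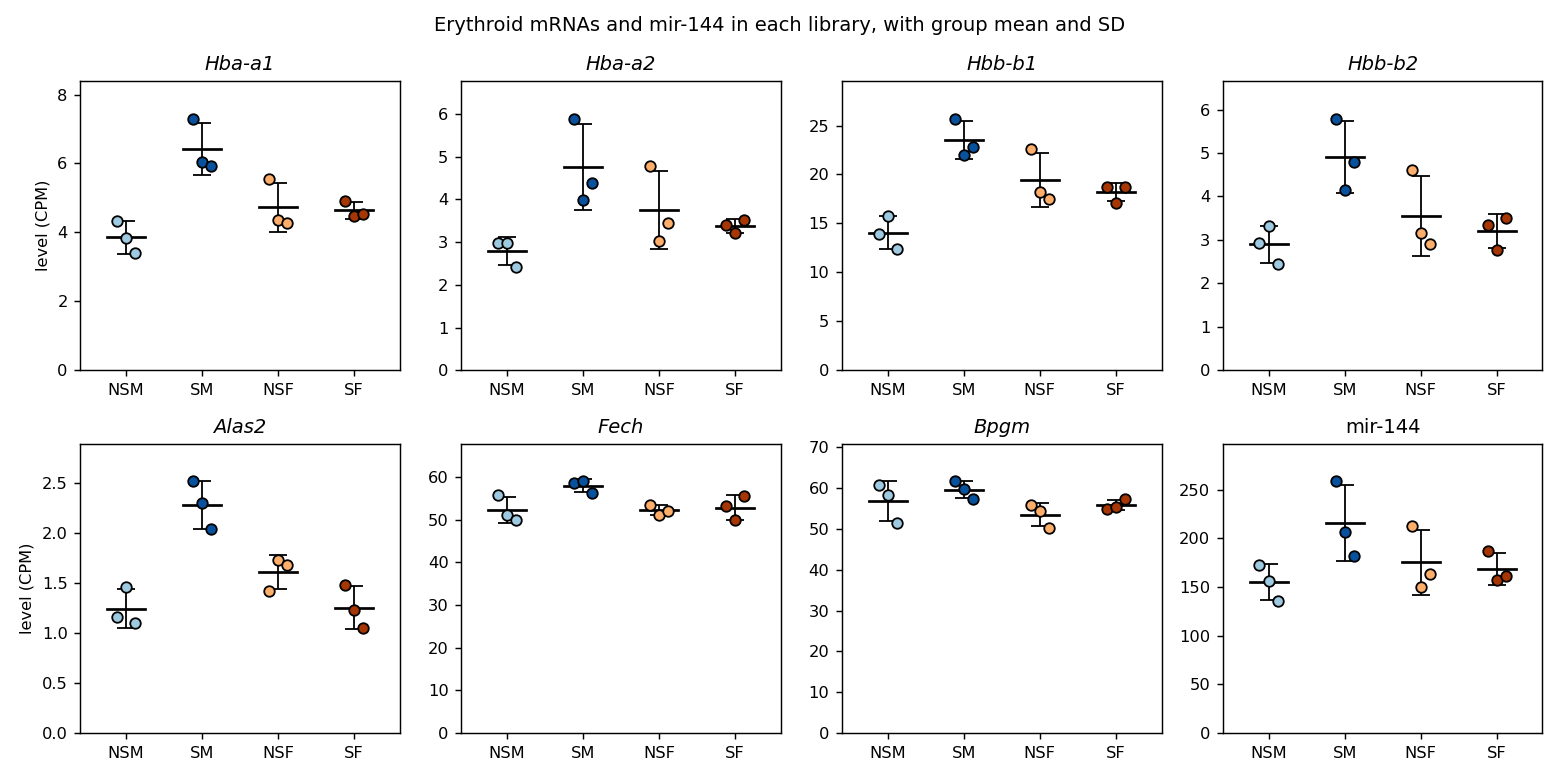
Level in CPM (vertical axes, from 0) of the 7 mRNAs and mir-144 in each library, grouped as NSM, SM, NSF and SF on the horizontal axes. Points are the 3 libraries of a group, the horizontal line is their mean and the bar the SD. The SM points of the 4 globins and *Alas2* lie above all NSM points, 1 NSF library is high for the globins and mir-144, and *Fech* and *Bpgm* stay between 49.8 and 61.7 CPM.

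The study called a gene regulated at an unadjusted p below 0.05 and a fold change of at least 1.3 in a voom-limma model. In the comparison of SM with NSM, 5 of the 7 member mRNAs were past these thresholds, all of them higher in SM, against 2.36% of all tested genes in that direction, and 6 of 7 had SM libraries all above the NSM libraries, against 11.3% of genes. In the comparison of SF with NSF, 0 of 7 were past the thresholds, where 1.73% of all genes were. In 0 of 7 the groups were separate, where 4.90% of genes were higher and 6.41% lower in all SF libraries. The study itself listed *Alas2* among the genes higher in stressed males and lower in stressed females. Here the female value of *Alas2*, -0.37 (SE 0.17), fell just short of the fold threshold. For the difference between the female and the male effect, 5 of 7 were past the thresholds, all with the lower effect in females, against 2.17% of genes. Because these comparisons led to the choice of the members, nothing is read from the counts. The median log2 fold change of the 7 mRNAs was 0.74 in males and -0.08 in females, and over all tested genes it was -0.01 and -0.00.

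**Figure D2:**
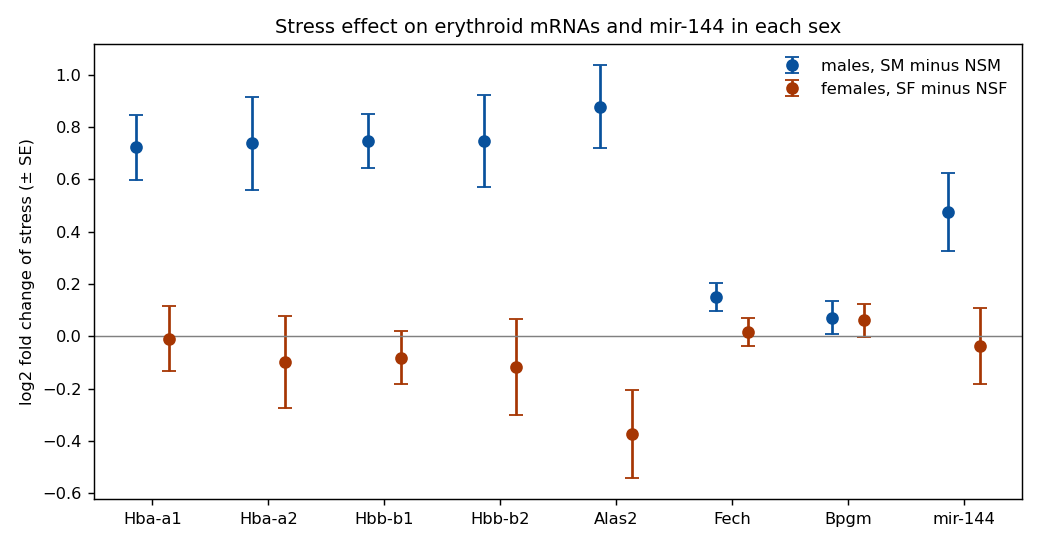
Log2 fold change of stress (vertical axis) for each of the 8 measured members (horizontal axis), with SM minus NSM in blue and SF minus NSF in brown. Bars are the SE of the fitted value. The 4 globins lie between 0.72 and 0.75 in males and between -0.12 and -0.01 in females.

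The sexes were also set side by side within each stress state. In unstressed mice the 4 globins were higher in females by 0.26 to 0.46 on the log2 scale, and *Hbb-b1* and *Alas2* were past the study's thresholds, 2 of 7 members against 4.17% of genes in that direction. *Hba-a2* and *Hbb-b1* were the members whose NSF libraries all exceeded the NSM libraries, 2 of 7 against 11.0% of genes. The size of these differences, and which members were past the thresholds, depended on single libraries. Without NSF1 the differences were 0.16 (SE 0.13) for *Hba-a1*, 0.19 (SE 0.17) for *Hba-a2*, 0.35 (SE 0.10) for *Hbb-b1* and 0.07 (SE 0.18) for *Hbb-b2*. That of *Alas2* was 0.46 (SE 0.18) without NSF1. Without NSM3 the difference was 0.15 (SE 0.20) for *Hbb-b2*, 0.38 (SE 0.11) for *Hbb-b1* and 0.31 (SE 0.19) for *Alas2*. *Hbb-b1* was no longer past the thresholds without NSF1 or NSM3, and neither was *Alas2* without NSM1, NSM3, NSF2 or NSF3, with DESeq2, with library size scaling, in a fit of only the libraries compared, or with the replicate block, so that 0 members were left without NSM3. *Hba-a2* was past them with edgeR, with DESeq2, with the replicate block and without NSF2. In stressed mice the order was turned. All 7 member mRNAs had every SF library below every SM library, against 7.65% of genes, and 4 of 7 were past the thresholds, against 0.968% of genes. Without SM1, 2 of 7 were past them, *Hbb-b2* and *Alas2*, and under the other refits 3 to 5 were. The globin differences, SF minus SM, ran from -0.60 for *Hbb-b2* to -0.37 for *Hbb-b1*, that of *Alas2* was -0.86, and those of *Fech* and *Bpgm* were -0.14 and -0.10.

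Per length of exon, *Hbb-b1*, *Fech* and *Bpgm* formed an upper group, the other globins a middle one, and *Alas2* the lowest. The order of the globins beside the other genes is as counted, and the part of reads shared between globin copies was not tested. In NSM the levels were 16.3 ± 1.96 CPM per kb for *Hbb-b1*, 18.0 ± 1.05 for *Fech* and 15.9 ± 1.36 for *Bpgm* (SD, n = 3 libraries). There *Hbb-b1* overlapped with both of the others. In SM *Hbb-b1* was at 27.2 ± 2.25 CPM per kb and *Fech* at 19.98 ± 0.50, and every *Hbb-b1* library was above every *Fech* library, as also in NSF and SF. *Hba-a1*, *Hba-a2* and *Hbb-b2* had group means of 4.12 to 7.90 CPM per kb and overlapped in NSM, SM and NSF, while in SF *Hba-a1* lay above the other two. *Alas2* had group means of 0.518 to 0.95 CPM per kb.

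**Figure D3:**
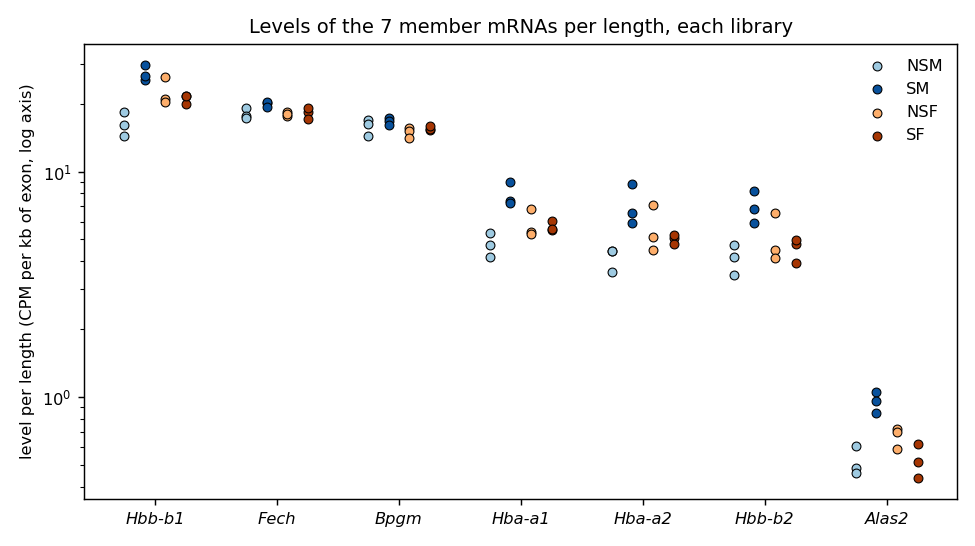
Level per length (vertical axis, log scale, CPM per kb of exon) of the 7 member mRNAs (horizontal axis, in order of their mean over all libraries), each point a library colored by group. *Alas2* lies below every other member in every library, and *Hbb-b1* in SM lies above *Fech* and *Bpgm*.

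The total of globin mRNA varied more than its make-up. The summed globins ranged 2.16-fold over the 12 libraries, from 20.7 CPM in NSM3 to 44.7 CPM in SM1. The ratio of alpha to beta reads stayed between 0.346 and 0.435, a 1.26-fold range, and averaged 0.394 ± 0.0389 in NSM, 0.392 ± 0.0239 in SM, 0.368 ± 0.0186 in NSF and 0.375 ± 0.0120 in SF (SD, n = 3 libraries). The ratio of *Hbb-b1* to *Hbb-b2* had a 1.40-fold range and averaged 4.86 ± 0.183 in NSM, 4.84 ± 0.442 in SM, 5.57 ± 0.582 in NSF and 5.72 ± 0.446 in SF, and that of *Hba-a1* to *Hba-a2* a 1.31-fold range. For every 100 globin reads there were 3.47 to 6.35 *Alas2* reads, a 1.83-fold range. This share was 5.27 ± 0.416 in NSM and 5.79 ± 0.499 in SM, and 5.26 ± 1.28 in NSF and 4.27 ± 0.722 in SF, so *Alas2* varied with the globins between the male groups and less closely among the female libraries.

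Across the 12 pools the 6 pairs of globin mRNAs had a Pearson r of 0.914 to 0.947 in log2 CPM, and of 0.795 to 0.969 for deviations from the group means. Reads shared between copies can enter these values, and their part was not tested. *Alas2* and the mean of the 4 globins had an r of 0.747, but 0.537 without the 2 pools farthest from the median (NSM3 and SM1) and 0.0571 within groups. Within the female groups alone the deviations of *Alas2* and the globin mean had an r of -0.475. *Fech* had an r of 0.747 and *Bpgm* of 0.536 with the globin mean, and without the same 2 pools 0.573 and 0.125.

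Of the 3 miR members, only mir-144 had reads in the precursor counts used here, and it was higher in stressed than in unstressed males. It measured 173, 156 and 135 CPM in NSM, 258, 207 and 182 CPM in SM, 213, 150 and 163 CPM in NSF, and 187, 157 and 161 CPM in SF. The male groups did not overlap, and the female groups did. The log2 fold change was 0.47 (SE 0.15) in males and -0.04 (SE 0.15) in females, so that 1 of the 3 miR members was past the study's thresholds in males, where 2.80% of tested miRs were higher by them and 8.20% had all SM libraries above the NSM libraries. In females mir-144 was not past them, where 4.80% of miRs were. The study itself listed miR-144-5p, miR-144-3p and miR-451a among the miRs higher in stressed males, and none of these as regulated in females. The difference between the effects, -0.51 (SE 0.21), was past them, where 3.40% of miRs had a lower effect in females. Without SM1 the male value of mir-144 was 0.34 (SE 0.14), below the fold threshold, and the difference between the effects was no longer past the thresholds without NSM3, SM1, NSF1, SF2 or SF3. The values of mir-144 were read in the same contrasts that chose it, and nothing is drawn from these counts. The miR rested on 710 to 3011 reads per library, and the counts are listed under precursor names, whereas the methods describe counting against mature miRs, so whether the value sums the reads of miR-144-5p and miR-144-3p is not known.

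The mean log2 level of the 4 globin mRNAs and the level of mir-144 ordered the pools similarly, although they were read in separate libraries made from different size fractions. SM1 was highest and NSM3 lowest in both. The second highest in mir-144 was NSF1, the third in globin mRNA, and SM2 and SM3 were among the highest 5 in both. Over the 12 pools Pearson r was 0.912 and Spearman rho 0.797. Without NSM3 and SM1 r was 0.789, and for deviations from group means it was 0.870 (0.833 in males and 0.908 in females). The points share a pool of mice, and these values are given without a test.

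**Figure D4:**
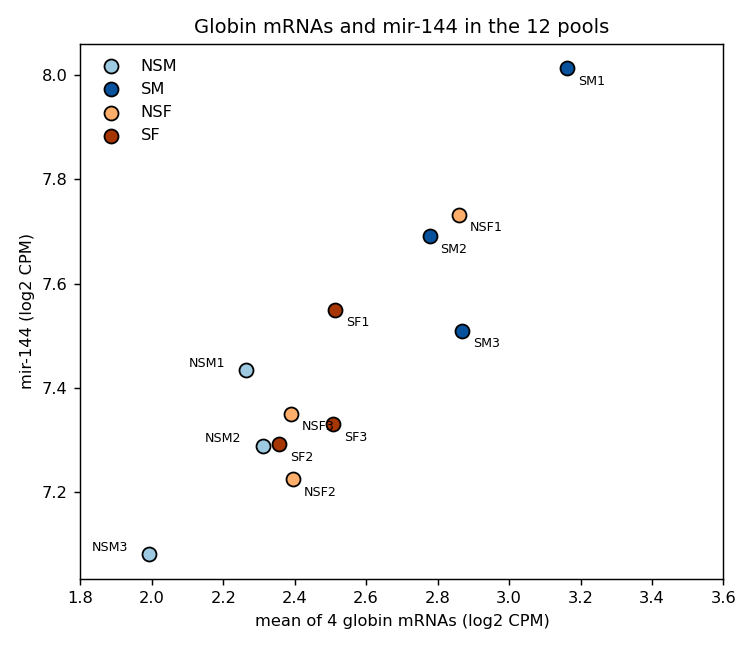
Level of mir-144 (vertical axis, log2 CPM) against the mean of the 4 globin mRNAs (horizontal axis, log2 CPM), each point 1 of the 12 pools colored by group. The points run from NSM3 at the lower left to SM1 at the upper right, and NSF1 lies among the SM pools.

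The single mRNAs followed mir-144 to different degrees. Pearson r with mir-144 was 0.928 for *Hba-a1*, 0.921 for *Hba-a2*, 0.823 for *Hbb-b1* and 0.881 for *Hbb-b2*. For *Alas2* it was 0.673, which fell to 0.302 without SM1 and SM2 and was 0.212 within groups. *Fech* had 0.775 and *Bpgm* 0.607. Of the 447 miRs that averaged 10 or more reads per library, mir-144 had the highest r with the globin mean. The next was mir-30a with 0.804, and the median over all was -0.0444. Within groups r with the globin mean was 0.870 for mir-144 and 0.617 for mir-30a. Both sides were chosen with their group differences known, and a shared group difference raises r across pools. The rank is therefore a description and not a test.

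No reads were counted for mir-451a or mir-486 in any of the 12 libraries, which at 3 counts per library allows a level of up to 0.222 CPM in the deepest and 0.590 CPM in the shallowest. That bound covers counting error only. The mir-451a hairpin lies on the same bases as that of mir-451b on the opposite strand, and mir-451b was also at 0. Of 40 precursors in 20 such opposite-strand pairs, 34 had no reads, or 85.0%, and the highest total over all libraries was 25 reads. Of the 904 other precursors matched to RefSeq hairpins, 21.3% had none. The listed 0 of mir-451a can therefore not be read as absence. The study itself listed the mature miR-451a among the miRs higher in stressed males, which the precursor counts used here cannot show. The miR set used here had no entry for mir-486, so an overlap with a precursor on the opposite strand was not checked for it. Its 0 is therefore not read as absence either, and its mature sequence is not printed.

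The remaining genes of the erythroid program were taken from a list of 46, of which 45 were found and 29 passed the filter. Of the 6 transcription factor and receptor genes, *Gata1*, *Klf1*, *Nfe2* and *Gfi1b* had at most 2, 7, 2 and 0 reads in any library, while *Tal1*, which also acts in vessels, had 38 to 71 reads and *Epor*, the erythropoietin receptor gene, 360 to 714. The anion exchanger gene *Slc4a1* had at most 5 reads, and the embryonic globin genes *Hbb-y*, *Hba-x* and *Hbb-bh1* had at most 3, 0 and 0. Of the whole list, 18 of the 45 stayed below 1 CPM in every library, while the globins and *Alas2* did not.

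By the study's thresholds 1 of the 29 was regulated by SCVS in males, against 6.44% of all tested genes. This was *Ermap*, which encodes an erythroid membrane protein, with 1.41, 1.16 and 1.16 CPM in NSM and 1.96, 1.94 and 2.02 CPM in SM. The groups did not overlap, and the log2 fold change was 0.66 (SE 0.17, adjusted p = 0.0509). Without NSM2, NSM3 or SM1, 2 genes of the list were called in place of 1. At an adjusted p below 0.05, 1 of the 29 passed, against 3.32% of all genes. It was the transferrin receptor gene *Tfrc*, which takes up iron in erythroid and many other cells. *Tfrc* measured 84.6, 89.8 and 85.5 CPM in NSM and 103, 114 and 118 CPM in SM, and its log2 fold change of 0.36 (SE 0.06, adjusted p = 0.00737) fell short of the fold threshold. The median over the 29 was 0.01, close to the -0.01 of all genes.

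Of the enzymes that act between *Alas2* and *Fech* in heme synthesis, *Cpox* had a log2 fold change of 0.11 (SE 0.06, adjusted p = 0.312) in males and *Ppox* of -0.08 (SE 0.14, adjusted p = 0.786). *Alad*, *Uros* and *Urod* were at -0.00, -0.01 and -0.01. The mitochondrial glycine carrier gene *Slc25a38*, needed for the *Alas2* step, had a log2 fold change of -0.23 (SE 0.07, adjusted p = 0.0757), which did not pass. *Bnip3l*, which clears mitochondria from reticulocytes, was at 0.14 (SE 0.07, adjusted p = 0.22). Over the whole list 6 of 29 genes had an unadjusted p below 0.05 in males, 5 higher and 1 lower, by voom-limma, where 21.5% of all tested genes did, and edgeR and DESeq2 also gave 6.

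In females 0 of the 29 were called by voom-limma, edgeR or DESeq2, and 0 had an unadjusted p below 0.05, where by voom-limma 1.73% of all genes were called and 4.23% had such a p. The effects of stress differed between the sexes for 1 of the 29 by the thresholds, against 4.42% of genes. This was *Tfrc*, which stood at 114, 102 and 109 CPM in NSF and 99.9, 98.5 and 105 CPM in SF, with a difference of -0.47 between the effects (SE 0.08, adjusted p = 0.105). In unstressed mice 1 of 29 was called, against 5.31% of genes. It was *Epor*, which was higher in NSF than in NSM by 0.39 (SE 0.12, adjusted p = 0.156), a call that was lost with DESeq2 and without NSM1, SF2 or any of the SM libraries. At an adjusted p below 0.05, *Tfrc* alone of the 29 was higher in NSF, by 0.32 (SE 0.06, adjusted p = 0.0382), against 0.285% of all genes. Between SF and SM 0 of 29 were called by any of the 3 tools, against 5.55% of genes by voom-limma, and 6 had an unadjusted p below 0.05, where 16.4% of genes did.

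**Figure D5:**
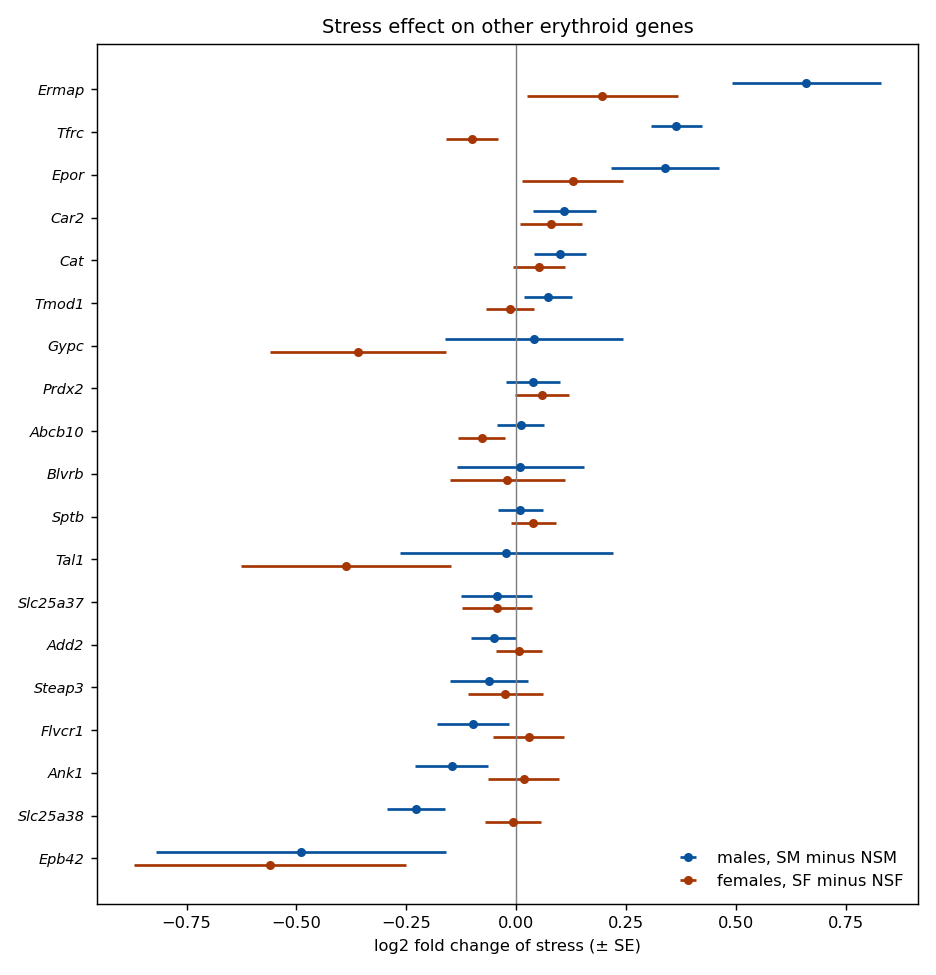
Log2 fold change of stress (horizontal axis, bars are SE) for the 19 tested genes of the iron and heme transport, membrane, enzyme, and transcription factor and receptor groups of the erythroid list (vertical axis, ordered by the male value), with males in blue and females in brown. *Ermap* and *Tfrc* lie farthest to the right in males at 0.66 and 0.36, and most genes lie near 0 in both sexes.

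Other miRs that are abundant in blood cells were looked at in the same way, 18 on the list, 17 found and 15 tested. In males 1 of 15 was called, against 5.20% of all miRs. It was mir-155, a miR of activated white cells, which was lower in SM, with 6.54, 4.98 and 4.002 CPM in NSM and 3.86, 3.46 and 3.55 CPM in SM (log2 fold change -0.52, SE 0.22, adjusted p = 0.332). The call was lost with DESeq2 and without NSM1, NSM2, SM2 or SM3. The 12 found of the red cell list, among them mir-16, mir-15a and mir-92a, summed to 6827 to 7145 CPM in NSM, 7437 to 7650 in SM, 7333 to 7886 in NSF and 7094 to 7649 in SF. Their 11 tested members had a median log2 fold change of 0.15 in males and -0.02 in females, beside -0.01 and 0.01 over all miRs. Among them mir-15a went from 277 ± 20.5 CPM in NSM to 326 ± 18.9 in SM (SD, n = 3 libraries), a log2 fold change of 0.24 (SE 0.09, limma adjusted p = 0.252).

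Over the whole list of blood miRs, 5 of 15 had an unadjusted p below 0.05 in males by voom-limma, 4 higher and 1 lower, where 12.4% of all miRs did, and DESeq2 gave 4. In females 0 of 15 were called or had an unadjusted p below 0.05 by voom-limma, edgeR or DESeq2, where 40 of the 500 tested miRs had such a p by voom-limma. For the difference between the effects 0 of 15 were called by voom-limma, edgeR or DESeq2, where 6.80% of all miRs were called by voom-limma. At an unadjusted p below 0.05 there was 1 by voom-limma and by edgeR and 2 by DESeq2, where 8.80% of miRs had such a p by voom-limma. In unstressed mice 0 of 15 were called by voom-limma and 1 by edgeR and by DESeq2, against 7.60% of miRs, and in stressed mice 0 by any of them, against 5.20%. With the replicate number as a block, 2 blood miRs were called in unstressed and 1 in stressed mice.

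Markers of other cells were summed in the same libraries. The muscle miRs (5 on the list, mir-1a-2 at 0 throughout) summed to 327 to 447 CPM in NSM, 514 to 658 in SM, 595 to 703 in NSF and 471 to 578 in SF, which separates the male groups as mir-144 does. All 4 tested muscle miRs were called higher in SM than in NSM, against 2.80% of tested miRs. At an adjusted p below 0.05 there were 0 of the 4 in that comparison, and the smallest limma adjusted p was 0.0676, for mir-206. Among them mir-206 went from 63.1 ± 13.3 CPM in NSM to 138 ± 27.1 in SM and from 203 ± 51.0 in NSF to 130 ± 28.1 in SF (SD, n = 3 libraries). The female change of mir-206 was called (-0.65, SE 0.20, limma adjusted p = 0.344). So were its lower effect in females than in males (-1.80, SE 0.30, limma adjusted p = 0.0131) and its higher level in NSF than in NSM (1.69, SE 0.22, limma adjusted p = 0.000916). For mir-1a-1 the lower effect in females (-0.59, SE 0.16, limma adjusted p = 0.294) and the higher level in NSF (0.43, SE 0.11, limma adjusted p = 0.0878) were called. The 6 lymphocyte markers summed to 4.54 to 6.16 CPM in NSM and 7.53 to 9.44 in SM, almost all of it *Ighm*, with the other 5 below 1 CPM. They summed to 6.40 to 7.99 CPM in NSF and 6.25 to 9.11 in SF. *Ighm* was called higher in SM than in NSM (log2 fold change 0.67, SE 0.15, limma adjusted p = 0.0361). It was also called for a lower effect in females (-0.56, SE 0.21, limma adjusted p = 0.421) and as higher in NSF than in NSM (0.42, SE 0.16, limma adjusted p = 0.218).

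The 7 neutrophil markers summed to at most 0.284 CPM in every library. The 7 platelet markers summed to 8.72 to 11.4 CPM in NSM, 9.74 to 10.7 in SM, 11.7 to 12.2 in NSF and 9.98 to 12.7 in SF, and 5 of the 7 were below 1 CPM. The sum was carried by *Gp1bb* and *Itga2b*. Of these *Gp1bb* was called higher in NSF than in NSM (log2 fold change 0.38, SE 0.13, limma adjusted p = 0.192). Among the low ones *Ppbp*, at 1 to 10 reads per library, was called higher in SM than in NSM (log2 fold change 1.09, SE 0.50, adjusted p = 0.227) and lower in SF than in SM (-1.10, SE 0.51, adjusted p = 0.296). The 4 vascular smooth muscle markers summed to 14.96 to 18.8 CPM in NSM, 17.5 to 20.8 in SM, 17.0 to 20.9 in NSF and 17.2 to 19.8 in SF. Of these *Tagln* was called higher in SM than in NSM (0.39, SE 0.16, adjusted p = 0.186), and *Myh11* was called for a lower effect in females than in males (-0.42, SE 0.16, adjusted p = 0.445). The 8 endothelial markers summed to 167 to 179 CPM in NSM, 170 to 192 in SM, 185 to 193 in NSF and 164 to 185 in SF. Among them *Cldn5* was called lower in SM than in NSM (-0.45, SE 0.18, limma adjusted p = 0.176). *Slco1a4* was higher in SM (0.28, SE 0.07, limma adjusted p = 0.0374) but fell short of the fold threshold. The choroid plexus marker *Ttr* was at 66.1 CPM in NSM1 and at 0.487 to 2.62 CPM elsewhere, and without NSM1 the median male log2 fold change of the 8 measured members was 0.76 in place of 0.73. In bulk punches more cells of a type and more RNA per cell cannot be told apart, and the part that blood or other cells in the punches had in these differences was not tested.

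The 10 other genes whose levels were most like the globin mean were *Oaf*, *Mtrf1*, *Tipin*, *Cops5*, *Slc25a16*, *Txnl4b*, *Fabp5*, *Tnfaip2*, *2700029M09Rik* and *Slc35b2*. They were the highest of 17567 genes with a mean of at least 10 reads, with a Pearson r over the 12 libraries of 0.948 for *Oaf* down to 0.894 for *Slc35b2*. Within groups r was 0.925 for *Oaf* and 0.693 for *Cops5*, the highest and lowest of the 10. The value of mir-144 with the globin mean, 0.912, lay between those of *Slc25a16* (0.916) and *Txnl4b* (0.911). For miRs the reference was to be mir-451a, but it had no reads in the counts used here, and mir-144 was used in its place. The miRs most like mir-144 were mir-30a (0.769), mir-329 (0.728), mir-665 (0.701), mir-101c (0.681) and mir-103-2 (0.649).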

How the data were processed

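The authors aligned the mRNA reads with TopHat2 to NCBIM37 (Ensembl 67) and the small RNA reads, trimmed and at least 16 nt long, with Bowtie to mm9 (miRBase 21), and counted both with HTSeq. They deposited raw counts per gene and per miR, the latter under precursor names although mature miRs are described. The unit is whole-number reads, and each library pools 5 mice, so that n = 3 pools per group. The strand setting of the counting is not given in the sources used here.

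The counts were scaled by TMM (edgeR 4.0.16) and fitted with voom and limma 3.58.1 in R 4.3.3, with 1 mean per group over the 12 libraries of an assay. The filter kept a feature if some group had over 5 reads in 80% or more of its libraries (18593 genes, 500 miRs), and p-values were adjusted by Benjamini-Hochberg over all of them. Called means an unadjusted p below 0.05 and a fold change of at least 1.3. Log2 CPM used a prior count of 0.5. The alternatives were DESeq2 1.42.0, the quasi-likelihood test of edgeR, other scalings and filters, a replicate block, a fit of only the libraries compared, and leaving out each library. The steps were tested on simulated data, and genes of the sex chromosomes matched the labelled sexes.

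The named genes are the 10 members, every called gene of the erythroid and blood miR lists, the 10 genes most like the globin mean, the 5 miRs most like mir-144 (in place of mir-451a, which had no reads), and the markers of other cells. The members and lists were chosen with earlier results of these data known. *Mfsd7b* in the files was read as *Flvcr1* through RefSeq synonyms, some genes of the erythroid list are counted but not reported here by name, and *Ahsp*, mir-486b and mir-126 were not analysed. Same-numbered NSF and SF small RNA libraries deviated from their group means together (r of 0.112, 0.192 and 0.312 over miRs). In no other pair of groups was r over 0.1 for every number, and for the mRNA of NSF and SF it was 0.101, 0.0779 and 0.107.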

Additional observations from a re-analysis of the deposited data

Results flagged for a closer look

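For 4 members the libraries lay on opposite sides in the 2 sexes, in that every SM library lay above the NSM mean and every SF library below the NSF mean. The effect in females minus that in males was -0.84 on the log2 scale for *Hba-a2*, -0.83 for *Hbb-b1*, -0.86 for *Hbb-b2* and -1.25 for *Alas2*. The difference was not tested, because the members were chosen with these values known. For the 3 globins the female values were within the SE of 0, at -0.10, -0.08 and -0.12, and they rested on NSF1. Without NSF1 they were 0.08 for *Hba-a2*, 0.03 for *Hbb-b1* and 0.07 for *Hbb-b2*, while that of *Alas2* was -0.45 in place of -0.37.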

How the results depend on the processing

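The 40 log2 fold changes of the members (8 members, 5 comparisons) were refitted 792 times, and all 792 values stayed within 1 SD of replicates of the first value. The median male value of the 8 members was 0.73 and ran from 0.61 to 0.78 when 1 library was left out, and it was 0.74 with the replicate block. The number of member mRNAs past the thresholds was 5 in males and 5 for the difference between effects under all refits, 0 to 1 in females (*Alas2*, without NSF1 or SF1 or with library size scaling), 0 to 3 in unstressed and 2 to 5 in stressed mice. The male call of mir-144 was lost without SM1. In females the signs of the globins and of mir-144 changed without NSF1, where mir-144 was at 0.10 and *Hba-a1* at 0.10. The r of 0.912 between the globin mean and mir-144 ran from 0.856 (without SM1) to 0.945 (without SM3), and it was 0.673 with *Alas2* in place of the globin mean. Counts on the lists are small, and the causes of their changes were not tested. With every gene of at least 1 read, the called erythroid genes were 2 in males, 1 in females, 2 for the difference between effects, 2 in unstressed and 1 in stressed mice. At an adjusted p below 0.05 they were 0 for the difference between effects, and the called blood miRs 0 in males. In unstressed mice the *Epor* call was lost (0 genes) with DESeq2, library size scaling, DESeq2 size factors, a fit of only the libraries compared, and without NSM1, any SM library or SF2. Leaving out 1 library gave 1 to 2 erythroid genes in males, 0 to 2 in females (2 without NSF2), 1 to 4 for the difference (4 without SF1), 0 to 3 in unstressed (3 without SF1) and 0 to 2 in stressed mice (2 without SF1). For blood miRs it gave 0 to 1 in males, 0 to 2 in females (2 without NSF1), 0 to 1 for the difference, 0 to 4 in unstressed (4 without NSF1) and 0 in stressed mice. Blood miRs called in unstressed mice were 1 with edgeR, 1 with DESeq2, 1 with at least 10 reads in every library and 2 with the replicate block, in males 0 with DESeq2, and in stressed mice 1 with the replicate block. The block changed no other count of the lists, and among the members it gave the call of *Hba-a2* and took that of *Alas2* in unstressed mice. The numbers pair the female small RNA libraries only by the check on deviations, and there the block gave 0 blood miRs, as without it. The mRNA libraries share only a number. Depth limits *Alas2* most, at 48 to 108 reads.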
